A study of Mus musculus with 6 samples.

Results

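The TGF-β receptor and Smad genes carry, or hold back, the signal of transforming growth factor β1 (TGF-β1) from the cell surface to the nucleus. They are 10 genes, chosen by name, of the 35297 genes to which transcripts were matched. They comprise the ligand gene Tgfb1, the receptor genes Tgfbr1, Tgfbr2 and Tgfbr3, the signal-carrying Smad genes Smad2, Smad3 and Smad4, and the inhibitor and repressor genes Smad7, Skil and Tgif1. Their mRNA was compared between bone marrow-derived mast cells (BMMCs) of BALB/c mice (3 libraries, S9, S10 and S11) and of C57BL/6 mice (3 libraries, S12, S13 and S14) on day 20 of culture. The donors of both strains were naive wild type mice, and both cultures received DMEM with serum, IL-3, IL-9, SCF and TGF-β1, so the ligand of this pathway was added to every culture and no culture without it was analysed here. The culture was checked by the authors for c-Kit and FcεRI at the cell surface. Directions of change follow the strain labels of the libraries. The age and sex of the marrow donors are not given in the sources used here. What the libraries measure is the mRNA of the genes, not the protein added to the medium, nor the activity of the receptors.

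TGF-β1 binds the type II receptor, the product of Tgfbr2, which recruits and phosphorylates the type I receptor, the product of Tgfbr1. The type I receptor in turn phosphorylates SMAD2 and SMAD3, which join the common partner SMAD4 and enter the nucleus. Betaglycan, the product of Tgfbr3, presents ligand to the receptors. SMAD7 is made in response to the signal and blocks the type I receptor, while SnoN, the product of Skil, and TGIF1 repress transcription by the SMAD complexes. In mast cell culture TGF-β1 is added to obtain cells of the mucosal type, which make the chymase-like protease encoded by Mcpt1.

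The libraries held between 28273365 and 37100869 reads on genes. All 8 of the mast cell genes listed were detected in every library, among them Kit, which encodes the SCF receptor, at 1766 ± 125 CPM (SD, n = 3) for BALB/c cells, with 1946.5 ± 26.3 CPM (SD, n = 3) for C57BL/6 cells. CPM is the read count of a gene scaled to a common library size after TMM correction. The genes listed for neutrophils and stromal cells had too few reads to be tested. The genes listed for basophils summed to between 405.5 and 417.8 CPM in the BALB/c libraries and to between 512.3 and 523.4 CPM in the C57BL/6 libraries. The genes listed for macrophages summed to between 0.705 and 1.63 CPM in the BALB/c libraries and to between 13.3 and 13.9 CPM in the C57BL/6 libraries, through Adgre1 and Cd68, whereas C1qa, C1qb, C1qc and Csf1r had 0 reads in every library. In bulk samples fewer cells of a type and less RNA per cell cannot be told apart. The part of these genes' cells in the results for the TGF-β genes was not tested.

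The TGF-β genes spanned a wide range of levels, compared here as TPM, which divides reads by transcript length. Tgfb1 had the highest level of the 10 genes in both strains, 329 ± 16.0 TPM (SD, n = 3) in BALB/c and 369 ± 12.2 TPM (SD, n = 3) in C57BL/6 cells. Tgfbr1 followed, with 54.5 ± 5.80 TPM in BALB/c and 51.2 ± 0.451 TPM in C57BL/6 cells. The order of the next 2 genes differed between the strains. In BALB/c cells the receptor gene Tgfbr2 (39.5 ± 3.01 TPM) lay above the inhibitor gene Smad7 (29.2 ± 3.03 TPM), and in C57BL/6 cells Smad7 (40.2 ± 3.55 TPM) lay above Tgfbr2 (33.4 ± 1.53 TPM), in each case with no overlap between the libraries of the 2 genes. Skil, Smad4, Smad2 and Tgif1 came next in both strains, in that order, and no library of one of these genes overlapped with those of its neighbour. The levels of Smad3 and Tgfbr3 were at or near 0 in every library. The order of these last 2 genes in C57BL/6 cells could not be told, since their libraries overlapped.

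**Figure D1:**
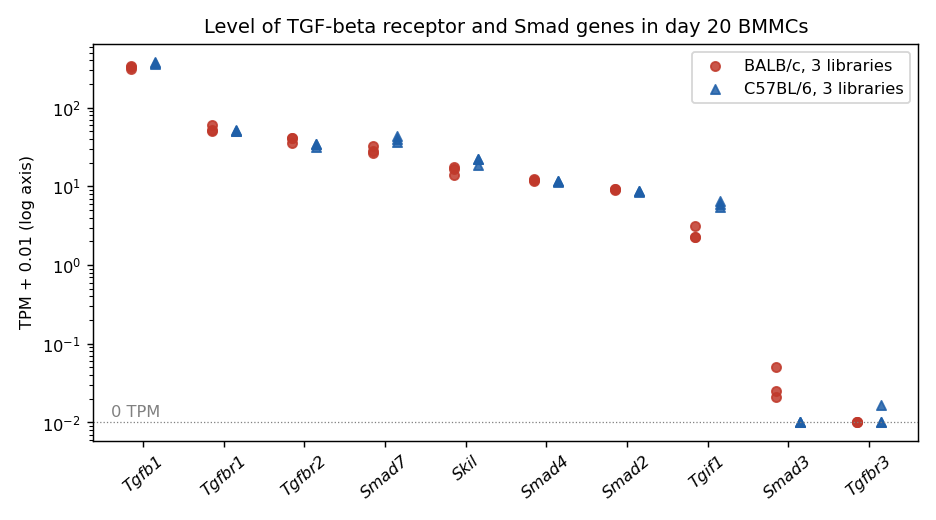
TPM of each of the 10 genes in each library, with 0.01 added, on a log axis. Circles are the 3 BALB/c libraries and triangles the 3 C57BL/6 libraries, and the dotted line marks 0 TPM. Tgfb1 lies at 312 TPM or more in every library, while Smad3 and Tgfbr3 lie at or near the dotted line.

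Of the 10 genes, 8 had enough reads for the strain test, which was the quasi-likelihood test of edgeR fitted and adjusted (Benjamini-Hochberg) over the 12461 genes tested. With an adjusted p under 0.05, 6 of these 8 genes differed, beside 52.9% of all genes tested. All 6 were higher in C57BL/6 cells, where 27.0% of all genes tested were higher, and 0 were lower, where 25.9% of all genes tested were lower. At an unadjusted p under 0.05 the number of lower genes was also 0, DESeq2 called 0 as well, and limma on TPM called 1, Tgfbr2. In either direction DESeq2 called 38.9% of all genes tested and limma on log2(TPM + 1) 64.9%. With a fold change above 2 in addition, 1 gene, Tgif1, was higher and 0 were lower, beside 7.73% higher, 5.54% lower and 13.3% in either direction among all genes tested. The median log2 fold change of the 8 genes was 0.23, beside -0.01 over all genes tested. In 6 of the 8 tested genes the CPM values of the strains did not overlap, each with C57BL/6 on top, while 61.9% of all genes tested did not overlap (31.1% with C57BL/6 and 30.8% with BALB/c on top). The calls for Smad2 and Smad4 rest on small differences and were lost in most alternative settings, while 4 genes, Tgfb1, Smad7, Skil and Tgif1, were higher in C57BL/6 cells in every one of the 18 alternative settings. The study describes the libraries of a strain as biological replicates. Whether they came from separate mice is not given in the sources used here, and p-values measure the spread between these libraries.

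**Figure D2:**
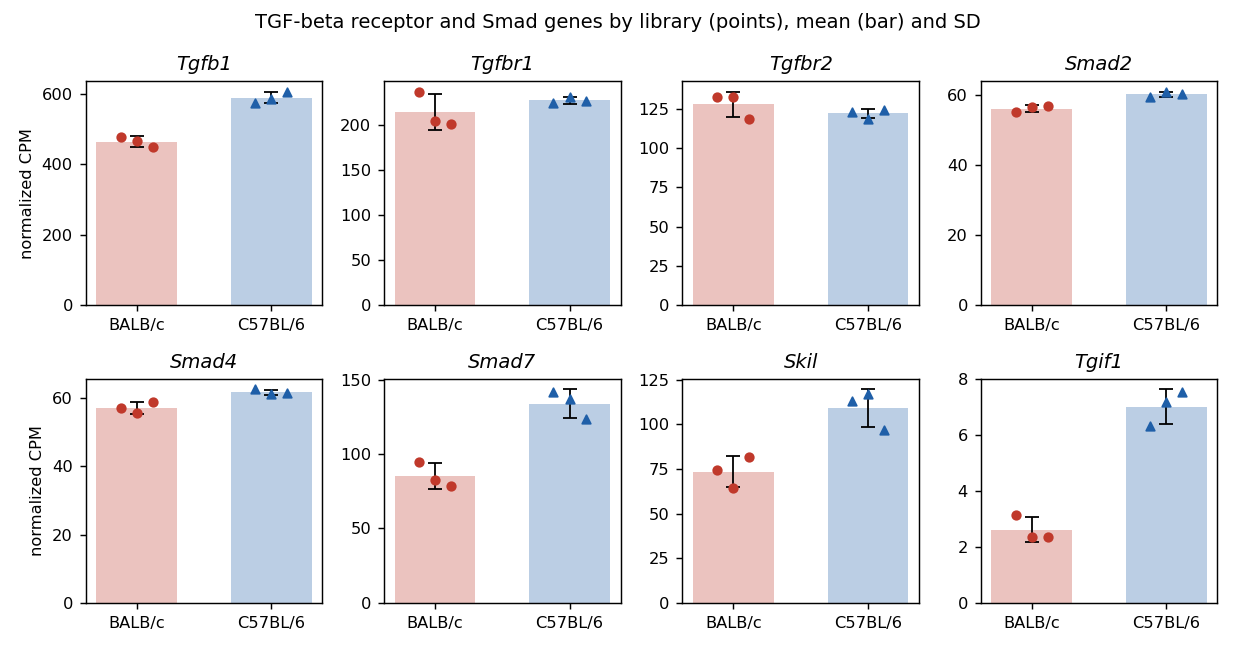
Normalized CPM of the 8 tested genes in each library. Bars are means, error bars are SD of 3 libraries, circles are BALB/c and triangles C57BL/6 libraries, and each axis starts at 0. In Tgfb1, Smad7, Skil and Tgif1 every C57BL/6 library lies above every BALB/c library, while in Tgfbr1 and Tgfbr2 the strains overlap.

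Tgfb1, which encodes the ligand itself (chromosome 7, 25386390 to 25404506 of GRCm39, plus strand), was higher in C57BL/6 cells. Its level was 479, 465 and 448 CPM in S9, S10 and S11 and 575, 585 and 606 CPM in S12, S13 and S14. The highest BALB/c library lay below the lowest C57BL/6 library, and the libraries within a strain lay close together. The log2 fold change, C57BL/6 relative to BALB/c, was 0.34 (SE 0.04, edgeR adjusted p = 8.37e-05), a fold change of 1.27. On the TPM scale the strains did not overlap either, with values from 312 to 344 in BALB/c and from 357 to 382 in C57BL/6 cells. The log2 fold change was smaller with limma on log2(TPM + 1) (0.17) and with plain library size (0.20). Relative to the median of all genes in those settings it was 0.33 and 0.35. Genes of the megakaryocyte and platelet list, a lineage known to hold much TGF-β1, summed to between 1393 and 1447 CPM for BALB/c and to between 1848 and 1962 CPM in C57BL/6 libraries. That sum came from Itga2b, the integrin αIIb gene, at 1121 ± 38.3 and 1680 ± 54.4 CPM, and from Gp1ba, at 303 ± 19.7 and 241 ± 10.98 CPM (SD, n = 3 each), while Ppbp and Gp9 had 0 reads in every library and Pf4 had at most 2. Itgb3 of the same list had 9 to 53 reads per library, with 0.659 ± 0.430 CPM for BALB/c and 1.396 ± 0.295 CPM in C57BL/6 cells (SD, n = 3; edgeR adjusted p = 0.0615). The part of this lineage in the level of Tgfb1 was not tested.

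Tgfbr1 and Tgfbr2, the genes of the signalling receptors, did not differ between the strains beyond the spread between libraries. Tgfbr1 (chromosome 4, 47353134 to 47414931, plus strand) had 238, 205 and 202 CPM in the BALB/c libraries S9, S10 and S11 and 225, 232 and 227 CPM in S12, S13 and S14 of C57BL/6. The C57BL/6 values lay within the range of the BALB/c values, which was set by S9. Its log2 fold change was 0.09 (95% interval -0.05 to 0.23, edgeR adjusted p = 0.266). Without S9 it was 0.16 and passed the threshold (adjusted p = 0.00719). Tgfbr2 (chromosome 9, 115913361 to 116004800, minus strand) had 132, 132 and 118 CPM in the BALB/c libraries and 123, 119 and 124 CPM in the C57BL/6 libraries, and again the strains overlapped. The log2 fold change was -0.07 (95% interval -0.18 to 0.05, edgeR adjusted p = 0.310), and without S11 it was -0.12 (adjusted p = 0.0331). On the TPM scale Tgfbr2 had 41.5, 41.1 and 36.1 in the BALB/c and 34.3, 31.6 and 34.2 in the C57BL/6 libraries, with no overlap, and limma on log2(TPM + 1) gave a log2 fold change of -0.24 (adjusted p = 0.0117). That scale moved the median of all genes to -0.17, and relative to this median the difference in Tgfbr2 was -0.07. The gene of the co-receptor betaglycan, Tgfbr3 (chromosome 5, 107249402 to 107437623, minus strand), had 1 read in S12 and 0 reads in the other 5 libraries. A count of 0 allows up to 3 reads, that is 0.0798 to 0.111 CPM depending on the library, so a strain difference in Tgfbr3 was not detectable at this depth.

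Both receptor genes were read from transcripts that differ by a short coding segment in the part of the protein outside the cell. The segments are shown because the longer and shorter transcripts compared below differ by them. Capitals mark the bases that the longer transcript has and the shorter lacks and lower case marks the coding bases on either side, joined across introns. The sequences were read from GRCm39 in the direction of the gene.
Tgfbr1, 12 bases at the 5′ end of coding exon 3, chr4:47393247-47393258: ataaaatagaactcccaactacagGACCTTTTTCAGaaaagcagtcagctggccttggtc
Tgfbr2, the 75 bases of coding exon 2, chr9:115987339-115987413: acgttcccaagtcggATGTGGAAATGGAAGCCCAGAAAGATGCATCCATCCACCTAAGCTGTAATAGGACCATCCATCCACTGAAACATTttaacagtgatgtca
The deposited transcripts were tied to these segments by their difference in length.

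The shorter Tgfbr1 transcript, without the 12 bases (NM_001312868), held 55.5%, 51.3% and 53.5% of the estimated Tgfbr1 reads in S9, S10 and S11 and 49.2%, 47.6% and 43.2% in S12, S13 and S14. Every BALB/c share lay above every C57BL/6 share. The difference was -6.74 percentage points (exact two-sided permutation test, p = 0.1, the smallest p that 3 against 3 libraries allow, 1 of 12 transcripts so compared and not adjusted). The longer transcript (NM_009370) held 40.9 ± 1.57% in BALB/c and 43.5 ± 5.05% in C57BL/6 cells (SD, n = 3), and its strains overlapped. Its difference was only 2.63 percentage points. Another Tgfbr1 transcript, NM_001312869, held 3.58%, 6.54% and 0.59% in S9, S10 and S11 and 9.84%, 7.66% and 5.91% in S12, S13 and S14. Whether it holds the 12 bases was not checked, so a strain difference in the use of the segment is not shown. For Tgfbr2 the shorter transcript (NM_029575) held the larger part of the reads in every library, with 58.9%, 67.8% and 71.9% for BALB/c, and 56.4%, 60.9% and 53.7% in C57BL/6 cells. The strains overlapped, and the difference of -9.19 percentage points was within the spread between libraries (exact permutation test, p = 0.2). Salmon splits reads that fit several transcripts, so the shares are estimates.

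**Figure D3:**
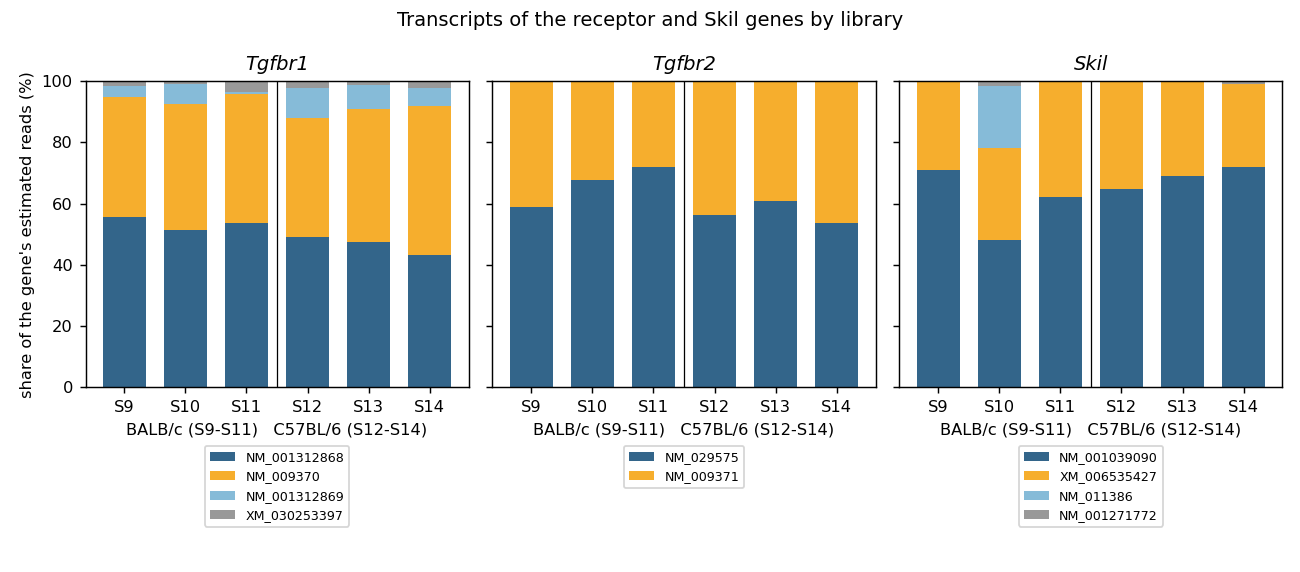
Share of the estimated reads of Tgfbr1, Tgfbr2 and Skil on each of their transcripts (percent, y axis) in each library (x axis), stacked to 100. The shorter Tgfbr1 transcript, NM_001312868, holds a larger share in each BALB/c than in each C57BL/6 library, the Tgfbr2 shares overlap between the strains, and a Skil transcript with reads in S10 has none in the other libraries.

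Smad2 and Smad4, which carry the signal to the nucleus, differed little between the strains. Smad2 (chromosome 18) had 55.2, 56.7 and 56.8 CPM in the BALB/c libraries and 59.5, 61.0 and 60.3 CPM in the C57BL/6 libraries. The strains did not overlap, and the log2 fold change was 0.10 (SE 0.04, edgeR adjusted p = 0.0423). Smad4 (chromosome 18) had 57.1, 55.5 and 58.9 CPM for BALB/c and 62.5, 61.0 and 61.4 CPM in C57BL/6 cells, again without overlap and with a log2 fold change of 0.11 (SE 0.04, edgeR adjusted p = 0.0408). Both differences were smaller than the shift between scalings. With plain library sizes in place of TMM, which moved the median of all genes to -0.15, Smad2 had a log2 fold change of -0.04 and Smad4 of -0.04, and neither passed the threshold. Relative to that median the differences were 0.11 for Smad2 and 0.12 for Smad4. The call was kept in 3 of 18 alternative settings for Smad2 and in 4 of 18 for Smad4. Leaving out any 1 library ended the call of Smad2 (log2 fold changes from 0.08 to 0.11), and leaving out any 1 but S11 that of Smad4 (from 0.08 to 0.12 in those settings). With predicted transcripts left out, the log2 fold change of Smad4 was 8.69e-05, and its predicted transcript XM_011246855 held 45.5 ± 5.64% of the Smad4 reads in BALB/c and 46.7 ± 5.06% in C57BL/6 cells (SD, n = 3).

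Smad3, the partner of Smad2 in TGF-β signalling (chromosome 9, 63554049 to 63665476, minus strand), had very few reads in these libraries. It had 1, 4 and 2 reads in S9, S10 and S11 and 0 reads in S12, S13 and S14. The counts of the strains do not overlap, but they lie near the floor of 3 reads that a count of 0 allows, and no fold change is given. Smad2, by comparison, had between 1651 and 2137 reads per library.

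Smad7, Skil and Tgif1, whose products hold the signal back, were each higher in C57BL/6 cells. Smad7 (chromosome 18) had 94.6, 82.8 and 78.2 CPM in the BALB/c libraries and 142, 137 and 123 CPM in the C57BL/6 libraries. The strains were clearly apart, and the log2 fold change was 0.65 (SE 0.08, edgeR adjusted p = 9.32e-05), a fold change of 1.57. Skil (chromosome 3, 31148816 to 31176740, plus strand) had 74.5, 64.2 and 81.7 CPM for BALB/c and 113, 117 and 97.0 CPM in C57BL/6 cells. S11 was the closest to the C57BL/6 libraries and S14 the closest to the BALB/c libraries, but the strains did not overlap. The log2 fold change was 0.57 (SE 0.09, edgeR adjusted p = 0.000823), a fold change of 1.48. Tgif1 (chromosome 17, 71151192 to 71160541, minus strand) had the lowest level of the 8 tested genes, at 3.14, 2.35 and 2.37 CPM for BALB/c and 6.32, 7.17 and 7.54 CPM in C57BL/6 cells. These values rest on 70.3 to 100 estimated reads per BALB/c library and on 194.5 to 267 estimated reads per C57BL/6 library. The log2 fold change of Tgif1 was 1.42 (95% interval 1.09 to 1.75, edgeR adjusted p = 3.84e-05), a fold change of 2.68. It was 0.98 and thus under the 2-fold threshold with limma on log2(TPM + 1), a scale that understates changes of low genes.

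**Figure D4:**
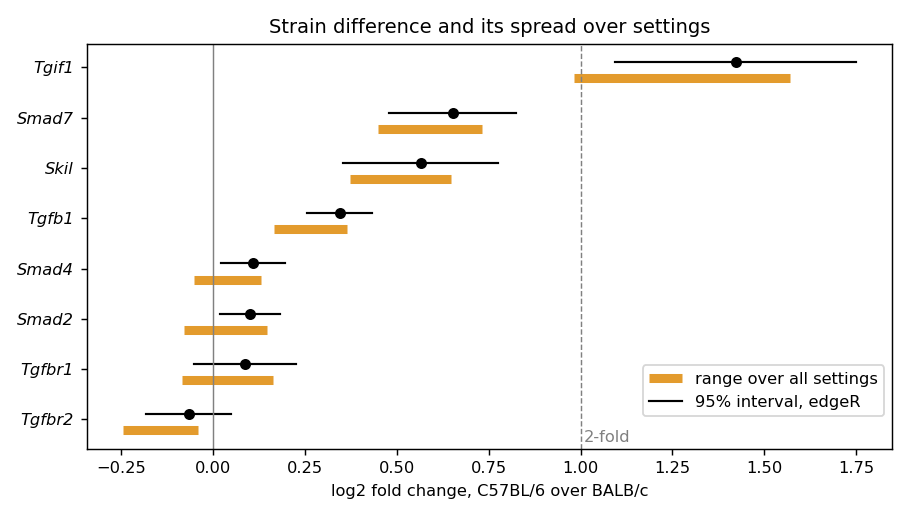
Log2 fold change (C57BL/6 relative to BALB/c, x axis) for the 8 tested genes (points, with black 95% intervals from edgeR) and, in orange, the range over the main and the 18 alternative settings. The dashed line marks a 2-fold change. The ranges of Tgif1, Smad7, Skil and Tgfb1 stay above 0, and those of Smad2, Smad4 and Tgfbr1 cross it.

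Ratios within a library need no scaling between libraries, and were computed after the values above had been seen. Smad7 TPM was 1.399, 1.300 and 1.255 times the geometric mean of Tgfbr1, Tgfbr2, Smad2 and Smad4 TPM in S9, S10 and S11, and 2.121, 2.002 and 1.788 times in S12, S13 and S14. The corresponding ratio of Skil was 0.713, 0.643 and 0.844 for BALB/c, and 1.09, 1.12 and 0.916 in C57BL/6 cells. For both genes every C57BL/6 ratio lay above every BALB/c ratio. The same held for Tgfb1, with ratios of 14.8, 15.1 and 14.8 against 17.8, 18.0 and 18.5, and for Tgif1, with 0.135, 0.103 and 0.107 against 0.263, 0.303 and 0.315. On the log2 scale the ratios differed by 0.28 for Tgfb1, 0.58 for Smad7, 0.51 for Skil and 1.36 for Tgif1. The genes above and below the line were chosen for the differences already given, so the ratios are a description without a test.

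The transcripts of Skil differ by a coding segment as well, printed because Salmon placed reads on the longer transcript in 1 library. Capitals mark the bases that the longer transcript has, and all bases shown are coding.
Skil, 138 bases of coding exon 3, chr3:31167652-31167789: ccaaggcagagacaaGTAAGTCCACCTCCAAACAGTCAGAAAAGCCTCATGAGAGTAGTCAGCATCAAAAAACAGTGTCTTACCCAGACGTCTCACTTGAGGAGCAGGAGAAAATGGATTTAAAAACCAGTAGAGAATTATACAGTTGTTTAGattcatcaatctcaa
The longer transcript (NM_011386) had 388.2 estimated reads, 20.3% of the Skil reads, in S10 and 0 reads in the other 5 libraries. A predicted transcript, XM_006535427, held 32.4 ± 4.89% in BALB/c and 31.1 ± 4.23% in C57BL/6 cells (SD, n = 3). Whether it holds the 138 bases was not checked, so the use of the segment is not known from these shares. The shorter transcript (NM_001039090) held 71.1%, 48.0% and 62.0% for BALB/c, and 64.7%, 68.9% and 72.1% in C57BL/6 cells, and the strains overlapped (exact permutation test, p = 0.3). Of the 12 transcripts with at least 10% of their gene's reads in the mean of a strain, only the shorter Tgfbr1 transcript had shares that did not overlap between the strains.

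The start regions of Tgfb1 and Tgif1 are shown because both genes were higher in C57BL/6 cells and the promoter table holds them. The stretches run from 250 to 51 bases before a start of the gene, in the direction of the gene. They come from the RefSeq table of GRCm38.p6 and were each found once on the same chromosome of GRCm39, whose coordinates are given. No exon annotated for the same gene overlaps them, and exons of other genes were not checked. Capitals mark matches, on either strand, to CAGAC, the Smad-binding element, and GGCGC, its GC-rich form.
Tgfb1, chr7:25386177-25386376, plus strand: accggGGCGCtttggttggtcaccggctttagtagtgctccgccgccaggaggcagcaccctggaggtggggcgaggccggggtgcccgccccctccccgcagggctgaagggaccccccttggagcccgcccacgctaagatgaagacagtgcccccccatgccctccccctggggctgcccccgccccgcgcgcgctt
Tgif1, most upstream start, chr17:71160578-71160777, minus strand: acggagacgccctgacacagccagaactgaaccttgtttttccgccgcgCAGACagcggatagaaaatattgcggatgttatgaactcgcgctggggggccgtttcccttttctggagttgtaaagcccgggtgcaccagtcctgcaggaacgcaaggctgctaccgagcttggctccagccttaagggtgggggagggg
The Tgfb1 stretch holds 1 match to GGCGC, which 25.7% of the 32851 stretches of the same length and place in the table hold. The Tgif1 stretch holds 1 match to CAGAC, which 35.8% of them hold. The table holds 5 starts of Tgif1, and from the most upstream to the most downstream their stretches hold 1, 2, 0, 0 and 0 matches to CAGAC and 0, 0, 0, 1 and 0 to GGCGC. A match is a description of the sequence and shows no binding.

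Beyond these 10 genes, 109 other genes of the pathway were listed, of which 80 were tested. Of the 80, 34 were higher in C57BL/6 cells, 10 were lower and 36 did not pass the adjusted p of 0.05, beside 27.0% higher and 25.9% lower over all genes tested. With a fold change above 2 there were 12 higher and 1 lower, beside 7.73% and 5.54% over all genes tested. Their median log2 fold change was 0.09. Of the list of genes known as TGF-β targets, 11 of 17 tested were higher, 1 was lower and 5 did not pass, with a median of 0.42, beside the same 27.0% and 25.9%. Cdkn2b, the gene of the cell cycle inhibitor p15, had 2.64 ± 0.452 CPM for BALB/c and 15.8 ± 1.70 CPM in C57BL/6 cells (SD, n = 3; log2 fold change 2.57, edgeR adjusted p = 7.13e-07). Id1 and Id2, inhibitors of basic helix-loop-helix factors that BMP signals also induce, rose by 1.95 and 1.22 on the log2 scale (1.17 and 1.04 with limma on log2(TPM + 1)). Mcpt1 and Mcpt2, the mucosal chymase-like protease genes with the highest TPM of the list, had log2 fold changes of 0.29 (edgeR adjusted p = 0.00494) and 0.60 (adjusted p = 2.86e-05), and the call of Mcpt1 was lost with plain library size (0.14) and on the TPM scale (0.10), and that of Mcpt2 with limma on log2(TPM + 1) without a filter (0.42, adjusted p = 0.415).

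Among the other genes that regulate Smads, 9 of 17 tested were higher and 1 was lower, beside 27.0% and 25.9% of all genes tested. Pmepa1, a TGF-β-induced gene whose product binds receptor Smads, had 0.823 ± 0.208 CPM for BALB/c and 18.6 ± 5.18 CPM in C57BL/6 cells (SD, n = 3; log2 fold change 4.52, edgeR adjusted p = 1.26e-06), and a log2 fold change of 2.30 with limma on log2(TPM + 1). Ppp1r15a and Stub1, which had the highest TPM of that list, had log2 fold changes of 0.28 (adjusted p = 0.0129) and -0.30 (adjusted p = 0.000402), and the call of Ppp1r15a was lost without S12 (0.22), with plain library size (0.13) and on the TPM scale (0.10). The list of other receptor genes also holds Fkbp1a, whose product binds the type I receptor. Of its 9 tested genes 4 were higher, beside the same 27.0%, and the 1 past 2-fold, Eng, the co-receptor endoglin, rested on at most 18 reads per library and passed in 5 of 15 alternatives, with log2 fold changes from 0.16 to 2.75. Fkbp1a and the activin receptor gene Acvr1b had log2 fold changes of 0.09 and -0.07 and did not pass, although without S11 Fkbp1a passed (0.13). Acvr1b passed as lower with plain library size (-0.22, adjusted p = 0.0179) and in the 3 TPM settings (-0.22 to -0.25), beside medians of all genes of -0.15 and of -0.15 to -0.19.

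The list of ligand genes other than Tgfb1 also holds Bmp1, which despite its name encodes a metalloprotease, and 3 of its 4 tested genes were higher, beside 27.0% of all genes tested. Bmp1 rose by 2.09 on the log2 scale (1.52 with limma on log2(TPM + 1)) and the ligand gene Bmp7 by 2.14 (1.09 in that setting). Gdf11 had 90.8 ± 4.12 and 90.9 ± 2.20 CPM (SD, n = 3), with a log2 fold change of 0.00165 (edgeR adjusted p = 0.978), but passed as lower with plain library size (-0.14, adjusted p = 0.0177) and in the 3 TPM settings (-0.17). The median of all genes was itself -0.15 with plain library size and -0.15 to -0.19 in the TPM settings. Tgfb2 and Tgfb3 had at most 7 and 11 reads per library and were not tested. Tgfb1 was the one TGF-β gene with enough reads for the test.

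Of the latency and activation genes, 3 of 9 tested were higher and 3 were lower, shares near the 27.0% and 25.9% of all genes tested. Ltbp1, which encodes a protein that ties latent TGF-β to the matrix, was lower in C57BL/6 (0.178 ± 0.160 CPM) than in BALB/c cells (4.04 ± 1.22 CPM) (SD, n = 3; log2 fold change -4.47, edgeR adjusted p = 8.44e-05). The Ltbp1 value rests on 0, 6 and 11 reads in S12, S13 and S14 and moved to -5.26 without S14, to -3.88 without S12 and to -0.91, under 2-fold, with limma on log2(TPM + 1). It could not be tested with curated transcripts alone or with 10 counts required in every library. Its relative Ltbp3 rose by 1.13 on the log2 scale, and by less than 2-fold with plain library size (0.98), without S11 (0.95), with curated transcripts alone (0.94) and on the TPM scale (0.63 to 0.93). The membrane protease gene Mmp14 rose by 2.16, and by 0.73 with limma on log2(TPM + 1). The genes with the highest TPM of the list were lower in C57BL/6 cells, Furin, whose product cleaves the TGF-β precursor, by a log2 fold change of -0.21 (adjusted p = 0.00224) and Nrros, which holds latent TGF-β1 on the cell surface, by -0.16 (adjusted p = 0.0161). The call of Nrros was lost without S10 (-0.13), S12 (-0.13) or S13 (-0.15), and with curated transcripts alone (-0.11, adjusted p = 0.152).

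In the BMP branch Smad5 was lower in C57BL/6 cells (log2 fold change -0.82, edgeR adjusted p = 4.42e-07) and Smad1 did not pass (0.19, adjusted p = 0.0714), although it passed without S9 (0.25) or S13 (0.25). Among the nuclear partners of Smads, 3 of 13 tested were higher and 2 lower, beside 27.0% and 25.9% of all genes tested. Atf3, a stress-induced factor, had 5.36 ± 2.58 CPM for BALB/c and 116 ± 12.5 CPM in C57BL/6 cells (SD, n = 3; edgeR adjusted p = 4.36e-07), and Runx2 rose by 3.43 on the log2 scale (0.93 with limma on log2(TPM + 1)). Fos fell by 0.90 on the log2 scale (adjusted p = 0.000641), while Jun, its partner in AP-1, had a log2 fold change of 0.01 (adjusted p = 0.960). In the Smad-independent branch 1 of 9 tested was higher and 2 were lower, beside the same shares. Map3k7, the gene of the kinase TAK1, had a log2 fold change of 0.43 (adjusted p = 2.16e-05) and Rhoa of 0.02 (adjusted p = 0.722). Rhoa passed as lower with plain library size (-0.13, adjusted p = 0.0106) and in the 3 TPM settings (-0.16), where the median of all genes was -0.15 and -0.15 to -0.19.

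**Figure D5:**
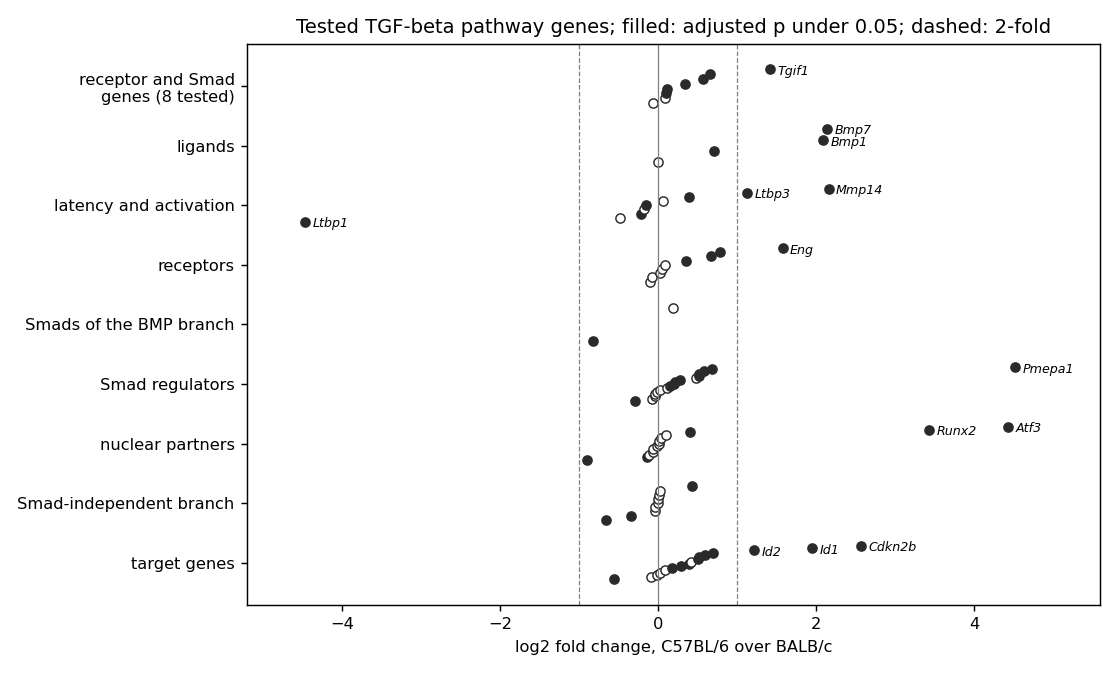
Log2 fold change (C57BL/6 relative to BALB/c, x axis) for tested genes of the receptor and Smad genes and of the other pathway lists (y axis, with the height within a list set by rank only). Filled points passed an edgeR adjusted p of 0.05, open points did not, and dashed lines mark 2-fold. The target genes Cdkn2b, Id1 and Id2 lie to the right of the 2-fold line, and Ltbp1 is the single gene past 2-fold on the left.

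Of the marker lists, 5 of 8 basophil genes tested were higher in C57BL/6 cells and 1 was lower, beside 27.0% and 25.9% of all genes tested. The higher genes included Mcpt8 (log2 fold change 1.12), Prss34 (5.86), Cebpa (6.53) and Ccl9 (5.52). In S9, S10 and S11 Prss34 had 1, 8 and 2 reads, Cebpa 5, 3 and 2, and Ccl9 5, 5 and 13. The sizes of the last changes are therefore uncertain, since these BALB/c counts lie at or near the floor of 3 reads. Cd200r3, the basophil gene with the highest TPM, did not pass (-0.07, edgeR adjusted p = 0.154). Adgre1 (4.93) and Cd68 (2.01) were the macrophage genes tested, and Adgre1 had 16, 0 and 16 reads in S9, S10 and S11. Values in the alternative settings were not drawn up for marker genes. Of the mast cell genes 5 of 8 were higher and 1 was lower, beside the same shares of all genes tested, with Tpsb2 (2.32) and Hdc (1.19) past 2-fold, Fcer1a at 0.13 and Cpa3 at -0.02. Of the megakaryocyte and platelet genes Itga2b (0.58) was higher and Gp1ba (-0.33) lower, and of the T or NK cell genes Ncr1 was tested and did not pass (-0.14, adjusted p = 0.327), while Foxp3 had at most 6 reads per library. The neutrophil genes with the highest TPM, Ly6g and Mpo, had at most 4 and 3 reads, and the stromal genes Col1a1 and Pdgfrb at most 1 and 2.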

How the data were processed

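RNA of day 20 BMMCs was compared between 3 BALB/c and 3 C57BL/6 libraries. The authors prepared stranded mRNA libraries, checked the reads with FastQC 0.11.5 and deposited, per library, the estimated count and the TPM of 129698 transcripts from Salmon 0.8.2, where TPM divides counts by effective length. The methods name Ensembl transcripts of GRCm39, whereas the tables list RefSeq accessions. Accessions were matched to symbols without version through a RefSeq table (GRCm38.p6, names only), which placed 106440 transcripts (82.1%), 70626 of them in the same version. Unmatched transcripts held from 2.69% to 3.12% of a library's reads and were left out. Coordinates are those of GENCODE on GRCm39.

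Estimated counts were summed by gene, rounded, normalized with TMM (factors from 0.94 to 1.05), filtered by edgeR at a minimum count of 10 and fitted with a model of strain (edgeR 4.0.16, R 4.3.3, quasi-likelihood test, Benjamini-Hochberg over all genes tested). Thresholds were an adjusted p of 0.05 and, as in the study, a fold change of 2. The biological coefficient of variation was 0.0665, so that for genes with many reads the number of libraries, not depth, limits precision. Libraries of a strain differed beyond counting noise (chi-square per degree of freedom from 6.49 to 13.5). Counts of 12461 genes were also simulated, with the same spread for every gene and most genes unchanged. There edgeR recovered 74 of 100 genes changed 1.4-fold and 99 of 100 changed 4-fold, with 11 false calls. In the data 52.9% of genes passed, so recovery and false calls may differ from the simulated ones. Transcript shares were compared with exact permutation tests (scipy 1.17.1). Words of 31 bases were compared between transcripts of different genes. Each of the 10 genes other than Tgfbr3 shared at most 0.59% of its words with any other gene, and Tgfbr3 3.92%.

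Alternatives were DESeq2 1.42.0 with and without a transcript length offset, the same offset in edgeR, library factors from DESeq2, from the upper quartile or from plain library size, no filter or a minimum of 10 counts per library, curated transcripts only, and each library left out, and limma 3.58.1 on log2(TPM + 1), with and without a filter, and on log2(TPM + 0.1). The genes named are the 10 genes and, from each list, the tested genes past both thresholds and the 2 with the highest mean TPM. C1qa, C1qb, C1qc, Csf1r, Kit, Ppbp, Gp9, Pf4, Itgb3, Tgfb2 and Tgfb3 are named outside this rule. A few listed genes enter the counts of their lists but are otherwise not reported here. The genes and lists were chosen with earlier results of these data known, and the ratios within a library after the values were seen.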

Additional observations from a re-analysis of the deposited data

How the results depend on the processing

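Tgfb1, Smad7, Skil and Tgif1 kept their direction and an adjusted p under 0.05 in each of 18 alternatives, with log2 fold changes from 0.17 to 0.37, 0.45 to 0.73, 0.37 to 0.65 and 0.98 to 1.57. The number of the 10 genes past the adjusted p ranged from 4 to 6, while the share of all genes tested that passed ranged from 36.0% to 64.9%. With plain library size it was 5 genes, beside 62.6% of all genes tested. The number lower in C57BL/6 cells became 1 (Tgfbr2) with plain library size, with limma on log2(TPM + 1), on log2(TPM + 0.1) and on log2(TPM + 1) without a filter, and ranged from 0 to 1 when a library was left out (1 without S11). In these settings, in this order, 62.6%, 64.9%, 64.6%, 40.8% and, without S11, 48.5% of all genes tested passed in either direction. The number past 2-fold became 0 with limma on log2(TPM + 1), with and without a filter, where 813 of 11419 and 802 of 18894 genes tested passed both thresholds.

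The median over all genes was -0.15 with plain library size, and with the TPM settings it lay between -0.19 and -0.15. Under plain library size, log2(TPM + 1), log2(TPM + 0.1) and log2(TPM + 1) without a filter, in this order, the direction turned for Tgfbr1 (-0.058, -0.084, -0.085 and -0.084), Smad2 (-0.044, -0.072, -0.079 and -0.072), Smad4 (-0.036, -0.047, -0.051 and -0.047), Gdf11 (-0.143, -0.166, -0.173 and -0.166), Fkbp1a (-0.055, -0.085, -0.087 and -0.085), Jun (-0.138, -0.174, -0.174 and -0.174) and Rhoa (-0.129, -0.163, -0.164 and -0.163). With upper-quartile factors it turned for Gdf11 (-0.019), Jun (-0.015) and Rhoa (-0.0051), and without a filter for Gdf11 (-0.0045). With a library left out, Gdf11 ranged from -0.036 to 0.029 and Jun from -0.074 to 0.091. Relative to the median of all genes the differences of Tgfbr1, Smad2 and Smad4 under the TPM settings were positive. They ran from 0.066 to 0.103 for Tgfbr1, from 0.078 to 0.109 for Smad2 and from 0.10 to 0.14 for Smad4. The cause was not tested further. None of the 84 alternative values of the transcript shares moved beyond the spread between libraries.

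Ltbp1 gave no value with 10 counts required in every library or with curated transcripts alone, and Eng none with 10 counts in every library or in the 2 TPM settings with a filter. No paired analysis was possible because the labels give the strains no shared replicate numbers. Depth limits Tgfbr3 and Smad3, which had at most 4 reads per library.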
